A study of Mus musculus with 8 samples.

Results

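The genes that write, maintain and remove DNA methylation were followed through the commitment of mouse embryonic stem cells (ESCs) to neural precursor cells (NPCs). The set is a list of symbols given by function, and all 10 genes were found among the 26263 genes counted in each library. They are *Dnmt1*, *Uhrf1* and *Hells*, *Dnmt3a*, *Dnmt3b* and *Dnmt3l*, *Tet1*, *Tet2* and *Tet3*, and *Tdg*. PolyA RNA of undifferentiated ESCs and of NPCs obtained after 12 days of *in vitro* corticogenesis was sequenced, in 2 libraries for each stage of each of 2 reciprocal crosses (8 libraries in all). The B/J cells were line BJE2 (genotype C57BL/6 x JF1) and the J/B cells line JBE6 (JF1 x C57BL/6), both male, so that each cross was 1 line and cross and line cannot be told apart. ESCs of both lines were kept on gelatin in a serum-free medium with LIF, BMP4 and a GSK3-β inhibitor. NPCs of both lines were differentiated on Matrigel in default medium with B27 lacking vitamin A and with dorsomorphin homolog 1, an inhibitor of BMP signalling. Libraries came from either of 2 kits and either of 2 sequencers, and which library had which was not stated. Nothing said that the 2 replicates of a group were separate cultures, so the p-values measure the spread between these libraries, which may be technical. Moreover, libraries with the same number deviated together within a stage (correlation over genes of replicate 2 minus replicate 1 of 0.52 between the ESC groups and 0.59 between the NPC groups), so that the 4 libraries of a stage, which the tests take as independent, come nearer to 2 sets of libraries.

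DNA methylation in mammals is carried on the cytosine of CG dinucleotides. DNMT3A and DNMT3B place it *de novo*, helped by the catalytically inactive DNMT3L, while DNMT1, guided by UHRF1 to the newly copied strand and aided by the remodeller HELLS, restores it after each replication. The TET enzymes oxidize methylcytosine, and the oxidized bases are either diluted by replication or excised by TDG and replaced through base excision repair. Naive ESCs are known for rapid turnover of the mark, and neural progenitors for use of the *de novo* enzyme DNMT3A.

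Short stretches upstream of the start sites are shown for the words found in them, one of which was present in the maintenance genes and in no other of the 10. RefSeq (GRCm38.p6) gave at least 1 promoter for all 10 genes, 17 windows of 250 bases before a start in total. A word bound by E2F factors, the regulators of S-phase genes (TTTCCCGC, TTTGGCGC, TTTCGCGC or TTTGCCGC, on either strand), lay in 3 of the 17 windows, those of *Dnmt1*, *Uhrf1* and *Hells*, against 1.86% of the 32851 promoters of all genes. Each of these words holds CG, and the 3 windows held 26, 30 and 28 CG dinucleotides, against a median of 6 over all promoters. Promoters of like CG content were not compared. Windows with more CG, of *Dnmt3a* (38 and 40) and *Tet2* (51), held no such word. The palindromic cAMP response element TGACGTCA was present upstream of *Tdg* alone (1.55% of all promoters), and the octamer ATGCAAAT in none of the 17 windows (1.6% of all). Shorter words were common: the GC box GGGCGG lay in 12 of the 17 windows (32.7% of all promoters), upstream of 9 of the 10 genes. The CCAAT box lay in 6 of the 17 windows (33.8% of all promoters), upstream of 4 genes. None of these matches overlaps the words shown here. A match is a description of letters and not of a bound site. In the lines that follow, 5′ to 3′ on the strand of the gene, the capitals mark the E2F word in the leading 3 and the cAMP response element in *Tdg*.
*Dnmt1*, chr9:20952824-20952853 (minus strand): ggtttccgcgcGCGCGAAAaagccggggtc
*Uhrf1*, chr17:56304117-56304146 (plus strand): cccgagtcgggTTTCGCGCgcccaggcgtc
*Hells*, chr19:38930917-38930946 (plus strand): gaccaccgggtTTTCCCGCgaaagagaagc
*Tdg*, chr10:82629692-82629721 (plus strand): cccacaaaagcTGACGTCAgccgggcgctc
The CG content of the windows also varied. The 3 windows of *Dnmt3l* held 3, 4 and 5 CG dinucleotides against a median of 6 over all promoters, whereas the window of *Tet2* held 51, more than 99.9% of all promoters, and that of *Hells* 28.

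In the annotation of GRCm39, the build the reads were aligned to, *Dnmt1* lies at chr9:20817945-20871184 (minus strand), *Uhrf1* at chr17:56610275-56630489 (plus) and *Hells* at chr19:38919359-38960047 (plus). *Dnmt3a* lies at chr12:3856007-3964443, *Dnmt3b* at chr2:153490861-153529650 and *Dnmt3l* at chr10:77877781-77899456, all on the plus strand. *Tet1* (chr10:62640349-62744775), *Tet2* (chr3:133169436-133250900) and *Tet3* (chr6:83339355-83436066) are on the minus strand and *Tdg* (chr10:82465610-82489654) on the plus strand. The exons of 6 of the 10 genes overlap those of a gene on the other strand, by 66 to 208 bases for *Tet2*, *Dnmt3l*, *Dnmt3a* and *Dnmt3b*, 1512 of 16695 bases for *Tet3* (with *Bola3*) and 5389 of 9435 bases for *Tdg* (with *Glt8d2*). The sources used here do not say whether the counting used the strand, so reads of such pairs could not be told apart with certainty. *Glt8d2* had 0 to 1 counts in ESCs and 15 to 103 in NPCs, beside 2683 to 4693 counts of *Tdg*.

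The libraries held 22537138 to 32706015 reads on genes. Levels are given as counts relative to library size (CPM) scaled by the trimmed mean of M values (TMM), whose factors were 0.8202 to 0.8851 in ESCs and 1.14 to 1.208 in NPCs, and differences as log2 fold changes of NPCs over ESCs with their standard error (SE). The stages differed widely. Over both crosses, by the quasi-likelihood test of edgeR adjusted after Benjamini and Hochberg, 31.9% of the 16399 genes tested were lower in NPCs and 37.5% higher at an adjusted p below 0.05, with a median log2 fold change of 0.17 over all genes. Pluripotency markers were lower in NPCs for 10 of 10 genes (*Pou5f1* from 1530 to 2380 CPM in ESCs to 17.1 to 50 CPM), and 8 of 10 neural precursor markers were higher, while *Sox2*, which ESCs also express, fell by 2.27 on the log2 scale. *Pax6* did not pass (log2 fold change 1.77, edgeR adjusted p = 0.0606), at 1.23 to 16.9 CPM in ESCs and 6.98 to 45.9 CPM in NPCs. The summed level of the neural precursor markers, *Sox2* included, overlapped between the stages, at 575 to 1000 CPM in ESCs and 368 to 1260 CPM in NPCs, the lowest being NPC B/J replicate 1. Markers of other lineages were present in NPCs. The summed level of 12 trophoblast markers, keratins included, was 93.2 to 232 CPM in ESCs and 1140 to 3220 CPM in NPCs (the highest in NPC B/J replicate 1), that of 10 mesoderm and fibroblast markers 15.9 to 109 CPM and 875 to 1820 CPM, and that of 10 endoderm markers 15.1 to 23.8 CPM and 69.1 to 138 CPM. Of these lists, 3 trophoblast and 2 endoderm markers had no read in any ESC library, and no list had a marker at 0 in all NPC libraries. The sum of the neuron markers was 456 to 1940 CPM in NPCs against 340 to 507 CPM in ESCs. That of 10 glia markers was 135 to 273 CPM in NPCs against 75.9 to 107 CPM in ESCs. In turn, 10 germ cell markers summed to 90.2 to 112 CPM in NPCs against 151 to 281 CPM in ESCs. The part of these other cells in the levels below was not tested, and in bulk RNA fewer cells expressing a gene and less RNA per cell cannot be told apart.

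Of the 10 methylation genes, 8 were lower in NPCs, *Tet3* was higher, and *Dnmt3a* did not pass the test. Their median log2 fold change was -2.25. With a replicate block within each stage 9 of the 10 genes passed (78.3% of all genes tested), with the libraries numbered 1 alone 8 (45% of all genes), and with those numbered 2 alone 10 (74.1% of all genes). None of these fits takes the spread between replicate numbers as error, so they cannot show whether the calls hold against it. The p-values given below for single numbers rest on the spread within 1 set of libraries. The same 8 genes had all 4 NPC libraries below all 4 ESC libraries, which was so for 31.2% of all genes tested, and *Tet3* had all 4 above, as had 35.3%. With scaling to library totals in place of TMM, *Tdg* was no longer among these genes.

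**Figure D1:**
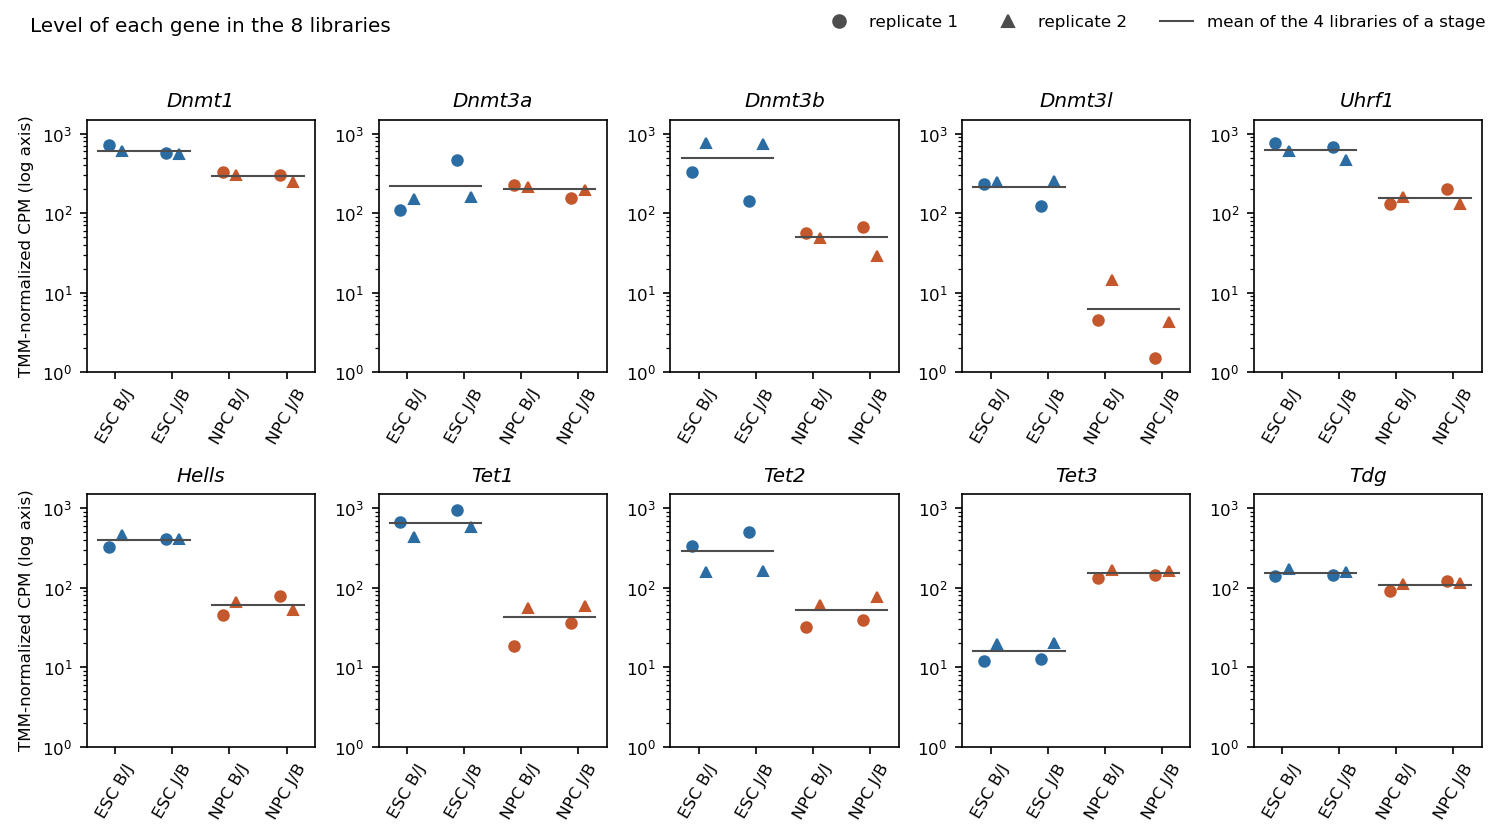
Level of the 10 genes in each of the 8 libraries (TMM-normalized CPM on a log axis) by stage and cross; circles are replicate 1, triangles replicate 2, and lines the mean of the 4 libraries of a stage. *Tet3* alone lies higher in NPCs in every library, *Dnmt3a* overlaps between the stages, and *Dnmt3l* goes from 124 to 251 CPM in ESCs to 1.48 to 14.5 CPM in NPCs.

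The maintenance machinery was lower in NPCs by unequal amounts. *Dnmt1*, the maintenance methyltransferase, was read at 722, 603, 562 and 547 CPM in the ESC libraries (B/J replicates 1 and 2, then J/B replicates 1 and 2, the order kept throughout) and at 324, 302, 301 and 246 CPM in the NPC libraries. Every NPC library lay below every ESC library, and the spread within a stage was small, 609 ± 79.2 CPM against 293 ± 33.6 CPM (SD, n = 4 libraries each). The log2 fold change was -1.05 (SE 0.129, adjusted p = 2.40e-04 in edgeR's test). It was -0.57 on library totals and -0.42 with scaling to *Gapdh*, *Gusb* and *Tbp* (edgeR adjusted p = 0.00384 and 0.0142). *Uhrf1*, which reads hemimethylated DNA and recruits DNMT1, was read at 758, 604, 683 and 466 CPM in ESCs and 129, 157, 200 and 131 CPM in NPCs. It fell by 2.02 on the log2 scale (SE 0.204, edgeR adjusted p = 9.73e-05). *Hells*, a chromatin remodeller of the SNF2 family that opens chromatin to methylation, was read at 329, 467, 410 and 407 CPM in ESCs and 45.1, 65.5, 79.6 and 51.9 CPM in NPCs. Its decrease was the largest of the 3 genes, -2.74 (SE 0.215, edgeR adjusted p = 3.95e-05). In ESCs *Uhrf1* and *Dnmt1* gave near equal numbers of reads, with a ratio of 0.851 to 1.21 within a library, and in NPCs this ratio was 0.398 to 0.664. *Hells* gave 0.455 to 0.774 reads per *Dnmt1* read in ESCs and 0.139 to 0.264 in NPCs. Such ratios within 1 library do not depend on how libraries are scaled to each other, and both differed between the stages at the smallest p that 4 against 4 libraries allow (two-sided exact permutation p = 0.0286, 0.0357 after adjustment over the 10 ratios computed).

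The *de novo* genes parted from each other. *Dnmt3b* was read at 329, 755, 143 and 737 CPM in ESCs and 56.1, 48.2, 67.6 and 28.6 CPM in NPCs. The ESC libraries fell into a high and a low pair by replicate number in both crosses, yet the lowest of them stood above the highest NPC library. Of 8 markers of formative pluripotency, 6 were also higher in both ESC replicates 2 than in either replicate 1, and *Etv4* was lower. Among them were *Otx2* at 1.52, 26.7, 1.12 and 25.6 CPM and *Pou3f1* at 5.99, 19.8, 6.72 and 23.7 CPM, and *T*, a gene of the primitive streak, split likewise at 6.6, 84.4, 8.96 and 65.8 CPM. In the list of mesoderm and fibroblast markers that holds *T*, 4 of 10 genes were higher in both ESC replicates 2 than in either replicate 1, and 3 were lower. The part of these markers in the level of *Dnmt3b* was not tested. The log2 fold change was -3.28 (SE 0.569, edgeR adjusted p = 0.00139), and -2.46 without ESC J/B replicate 2 (adjusted p = 0.00115). With the libraries numbered 1 alone it was -1.81 and with those numbered 2 alone -4.33 (edgeR adjusted p = 0.0251 and 2.37e-05). *Dnmt3l*, the cofactor without catalytic activity, was read at 234, 249, 124 and 251 CPM in ESCs. In NPCs it was down to 4.44, 14.5, 1.48 and 4.23 CPM, the lowest of these from 58 counts (95% exact Poisson interval 1.13 to 1.92 CPM, counting error only). This was the largest decrease of the 10 genes, -5.36 (SE 0.524, edgeR adjusted p = 8.90e-05), 34.9-fold on the mean levels. *Aire*, whose exons overlap those of *Dnmt3l* by 67 bases, was read at 7.52 to 15.8 CPM in ESCs and 0.307 to 2.58 CPM in NPCs, with its lowest and highest NPC libraries the same as those of *Dnmt3l*. The summed pluripotency markers of the NPC libraries were 159, 335, 95.2 and 156 CPM, in the same order of libraries as *Dnmt3l*, and their part in its level was not tested.

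*Dnmt3a* took another course. It was read at 109, 149, 460 and 159 CPM in ESCs and at 227, 214, 156 and 197 CPM in NPCs. ESC J/B replicate 1 stood far above the other ESC libraries, the stages overlapped, and the log2 fold change over both crosses was -0.01 (SE 0.308, edgeR adjusted p = 0.969). With the libraries numbered 1 alone it was -0.24 and with those numbered 2 alone 0.41 (edgeR adjusted p = 0.786 and 0.00946). Without ESC J/B replicate 1 it was 0.46 (edgeR adjusted p = 0.0503). The sign rests on this library and on the scaling, being 0.47 on library totals and 0.64 with scaling to *Gapdh*, *Gusb* and *Tbp* (edgeR adjusted p = 0.193 and 0.0868). That same library had the lowest *Dnmt3b* and *Dnmt3l* of the ESC libraries and the highest *Tet1* and *Tet2*. It also had the lowest *Dppa3* (8.32 CPM against 29.2 to 39.5 CPM), which encodes an inhibitor of UHRF1, the highest *Prdm14* (63.6 CPM against 25.2 to 51.7 CPM), which encodes a repressor of the *de novo* genes, and the highest summed pluripotency markers (10400 CPM against 5910 to 9280 CPM). Among the mesoderm and fibroblast markers it had the highest *Col1a1* (28.2 CPM against 0.608 to 3.03 CPM), *Col1a2* (19.2 against 0 to 0.171), *Col3a1* (15.8 against 0 to 1.19) and *Pdgfrb* (11.4 against 1.45 to 4.86), while the sum of the list (87.1 CPM, against 15.9 to 109 CPM) was carried in the replicates 2 by *T* (84.4 and 65.8 CPM, 8.96 CPM here). Other markers of the list were not raised here. *Twist1* was lowest in this library (2.35 CPM against 3.21 to 6.56 CPM), *Mesp1* was at 0 CPM (against 0.0434 to 1.88) and *Mixl1* at 0.8 CPM (against 0.477 to 13.6). The part of these in its *Dnmt3a* level was not tested.

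Within single libraries the balance of the *de novo* genes was therefore followed by ratio. *Dnmt3b* gave 3.03, 5.07, 0.311 and 4.64 reads per *Dnmt3a* read in ESCs and 0.247, 0.225, 0.432 and 0.145 in NPCs. The NPC values were all below 1, as was the value of ESC J/B replicate 1. The difference in mean log2 ratio was -3.16 (exact permutation p = 0.0571, adjusted p = 0.0635), and without that library -4.09. Leaving out the only overlapping ESC library fixes the exact permutation p at 0.0286, the smallest 3 against 4 libraries allow, so it is no further test. *Dnmt3l* gave 2.16, 1.67, 0.271 and 1.58 reads per *Dnmt3a* read in ESCs and 0.00948 to 0.0674 in NPCs, with no overlap (difference -5.61, exact permutation p = 0.0286, adjusted p = 0.0357). *Dnmt3a* gave 0.15, 0.247, 0.817 and 0.291 reads per *Dnmt1* read in ESCs and 0.699, 0.71, 0.519 and 0.804 in NPCs, where the highest ESC value was again that of J/B replicate 1 and exceeded all NPC values. This ratio did not pass (difference 1.14, exact permutation p = 0.143). Without ESC J/B replicate 1 the difference was 1.61. The exact permutation p of 0.0286 is again fixed by leaving out the only overlapping ESC library and is no further test. *Dnmt3b* gave 0.254 to 1.35 reads per *Dnmt1* read in ESCs and 0.117 to 0.224 in NPCs (difference -2.02, exact permutation p = 0.0286), and without any 1 NPC library the exact p was 0.0571.

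**Figure D2:**
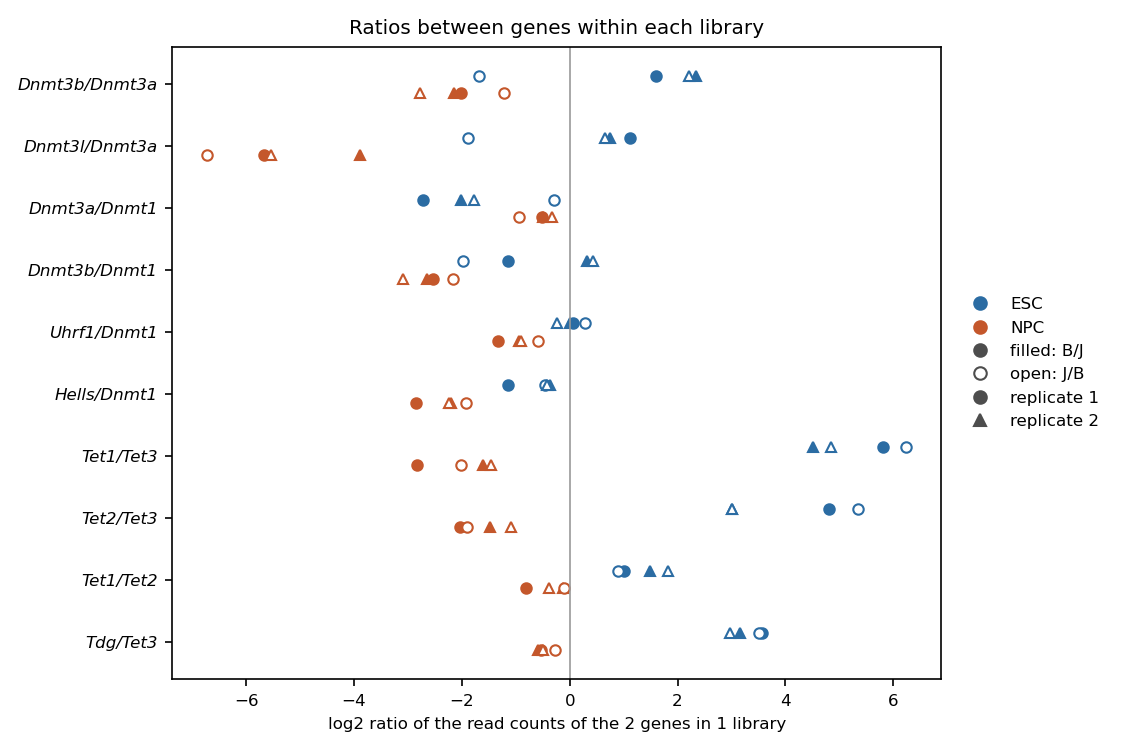
Log2 ratio of the read counts of 2 genes within each library, not corrected for length, with ESCs in blue and NPCs in orange, B/J filled and J/B open, circles replicate 1 and triangles replicate 2. *Tet1/Tet3* and *Tet2/Tet3* are above 0 in all ESC and below 0 in all NPC libraries, and ESC J/B replicate 1 lies apart from the other ESC libraries in the 2 ratios over *Dnmt3a*.

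The TET genes exchanged places. *Tet1* was read at 677, 439, 951 and 576 CPM in ESCs and 18.3, 55.4, 36.1 and 59.4 CPM in NPCs, and *Tet2* at 338, 156, 508 and 162 CPM in ESCs and 31.9, 60.6, 38.7 and 77.3 CPM in NPCs. Both were lower in every NPC library than in any ESC library, and both were higher in the ESC replicates numbered 1 and lower in the NPC replicates numbered 1 than in those numbered 2. The summed pluripotency markers of the ESC libraries (9280, 6770, 10400 and 5910 CPM) were also higher in the replicates numbered 1. The summed neuron markers of the NPC libraries (456, 1290, 1030 and 1940 CPM) had the same order of libraries as both genes. The part of these markers in the 2 levels was not tested. *Tet1* fell by 3.96 on the log2 scale (SE 0.415, edgeR adjusted p = 1.19e-04). *Tet2* fell by 2.47 on the same scale (SE 0.465, edgeR adjusted p = 0.00208). The log2 fold change of *Tet2* was -3.55 with the libraries numbered 1 alone and -1.22 with those numbered 2 alone, and that of *Tet1* -4.95 and -3.14. *Tet3*, whose product is the TET enzyme of the oocyte and of many differentiated tissues, was read at 12.1, 19.3, 12.6 and 20.1 CPM in ESCs and 131, 169, 146 and 163 CPM in NPCs. It was the only one of the 10 genes that rose (log2 fold change 3.25, SE 0.232, edgeR adjusted p = 2.91e-05), and its NPC libraries lay close to each other, at 152 ± 17.2 CPM (SD, n = 4). *Bola3*, which shares 1512 exonic bases with it on the other strand, was at 4.96 to 11.5 CPM in ESCs and 6.27 to 11.8 CPM in NPCs. There were 56.1, 22.7, 75.6 and 28.7 *Tet1* reads per *Tet3* read in ESCs and 0.139, 0.328, 0.248 and 0.365 in NPCs, a difference of -7.33 in mean log2 ratio, the widest of the 10 ratios. *Tet2* against *Tet3* went from 8.07 to 40.4 in ESCs to 0.244 to 0.474 in NPCs, and *Tet1* against *Tet2* from 1.87 to 3.55 to 0.572 to 0.934. The 3 ratios each had an exact permutation p of 0.0286 (adjusted 0.0357).

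*Tdg*, the glycosylase that excises oxidized methylcytosine, changed least among the genes that passed. It was read at 143, 172, 143 and 159 CPM in ESCs and 90.5, 112, 120 and 115 CPM in NPCs. The fitted difference was -0.50 on the log2 scale (SE 0.131, edgeR adjusted p = 0.0102). The direction of this change depends on the scaling. On library totals the log2 fold change was -0.02 (edgeR adjusted p = 0.912), and with scaling to *Gapdh*, *Gusb* and *Tbp* it was 0.14 (edgeR adjusted p = 0.512). With the libraries numbered 1 alone it was -0.44 (edgeR adjusted p = 0.143). The ratio of *Tdg* to *Tet3*, free of scaling, was 7.91 to 11.8 in ESCs and 0.665 to 0.825 in NPCs (exact permutation p = 0.0286).

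Levels of different genes were compared per kilobase of the annotated canonical transcript (RPKM, with TMM scaling). In ESCs the order by mean was *Uhrf1* (173 ± 34.4 RPKM), *Dnmt3l* (128 ± 36.2), *Dnmt3b* (115 ± 71.5), *Dnmt1* (103 ± 13.4), *Hells* (62.8 ± 8.84), *Tet1* (47.2 ± 15.5), *Tet2* (29.7 ± 17.1), *Tdg* (23.3 ± 2.11), *Dnmt3a* (22.5 ± 16.6) and *Tet3* (2.69 ± 0.719; SD, n = 4). Neighbours in this order overlapped in their ranges over libraries, except that *Hells* (51.2 to 72.7 RPKM) lay below *Dnmt1* (92.3 to 122 RPKM) and *Tet3* (2.03 to 3.38 RPKM) below all others. In NPCs *Dnmt1* (49.5 ± 5.67 RPKM) and *Uhrf1* (42.5 ± 9.03) led, followed by *Tet3* (25.6 ± 2.9), *Dnmt3a* (20.4 ± 3.15) and *Tdg* (16.6 ± 1.98). *Dnmt3b* (11.8 ± 3.85) and *Hells* (9.43 ± 2.38) came next, and *Tet2* (5.32 ± 2.12), *Dnmt3l* (3.67 ± 3.4) and *Tet1* (3.03 ± 1.36) closed the order. Here the ranges of neighbours overlapped except between *Uhrf1* and *Tet3*. The order depends on the length assumed. With the union of all annotated exons, *Tet3* (9.11 ± 1.03 RPKM) came after *Dnmt3a* (11.7 ± 1.8) and *Tdg* (11.6 ± 1.38) in NPCs, and *Dnmt3l* (69.7 ± 19.7) after *Dnmt3b* (79.2 ± 49.1) and *Dnmt1* (71.6 ± 9.32) in ESCs.

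**Figure D3:**
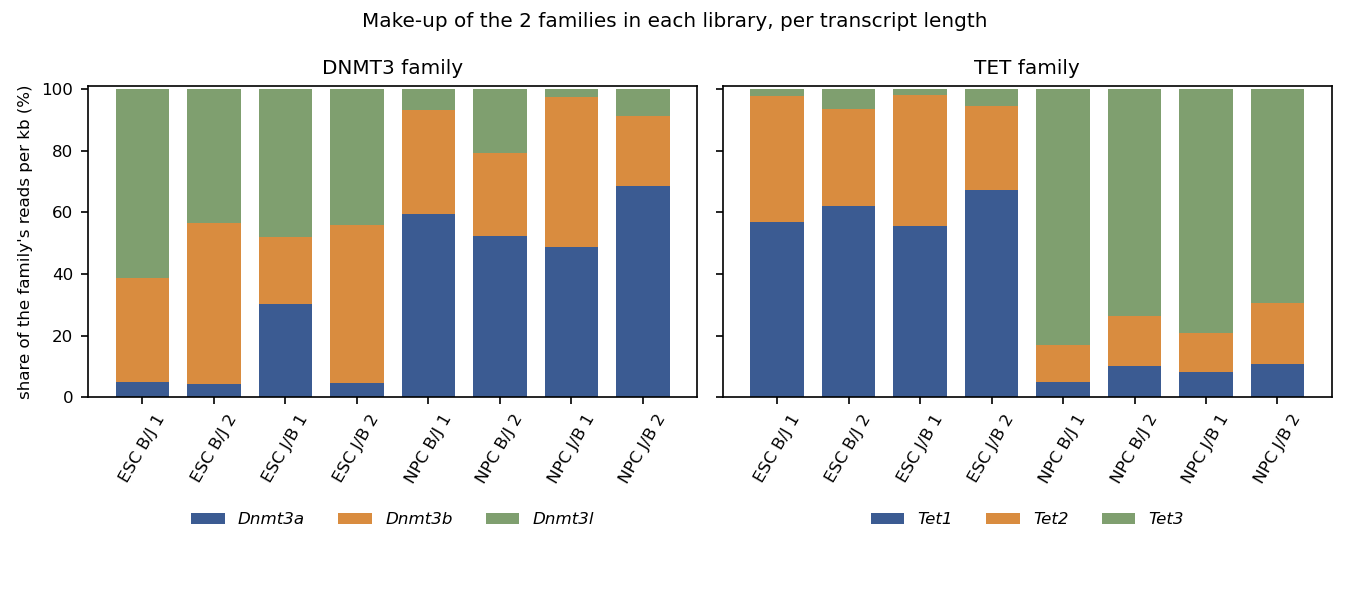
Share of each gene in the summed reads per kilobase of its family (percent) in the 8 libraries, for *Dnmt3a*, *Dnmt3b* and *Dnmt3l* on the left and *Tet1*, *Tet2* and *Tet3* on the right. *Tet3* makes up 1.74% to 6.43% of the TET reads in ESC libraries and 69.3% to 82.8% in NPC libraries, and ESC J/B replicate 1 holds 30.4% *Dnmt3a* against 4.48% to 4.88% in the other ESC libraries.

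Per kilobase, the DNMT3 family in ESCs was made up of *Dnmt3l* (49.2% ± 8.28), *Dnmt3b* (39.6% ± 14.6) and *Dnmt3a* (11.1% ± 12.8; SD, n = 4 libraries). In NPCs *Dnmt3a* held 57.4% ± 8.7, *Dnmt3b* 33% ± 11.2 and *Dnmt3l* 9.66% ± 7.69. The summed level of the family was 155 to 341 RPKM in ESCs and 29.5 to 41.9 RPKM in NPCs, so that the larger share of *Dnmt3a* in NPCs came with a lower sum. In the TET family *Tet1* held 60.6% ± 5.34 in ESCs and 8.56% ± 2.64 in NPCs, *Tet2* 35.4% ± 7.36 and 15.2% ± 3.6, and *Tet3* 4.02% ± 2.31 and 76.2% ± 5.91. The TET sum was 50.6 to 122 RPKM in ESCs and 26.6 to 39.5 RPKM in NPCs. The shares move with the length as well. With the union of all annotated exons as length, *Tet3* held 1.88% ± 1.06 in ESCs and 62.9% ± 7.92 in NPCs, *Tet1* 72.2% ± 4.9 in ESCs and 17.7% ± 4.84 in NPCs, and the leading gene of each family and stage stayed the same except that *Dnmt3b* (44.7%) and *Dnmt3l* (44.5%) were level in ESCs.

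Both crosses were then compared. Within B/J, 25.6% of all genes tested were lower and 30.1% higher in NPCs, and of the 10 genes the same 8 were lower and *Tet3* higher. Within a cross the calls of *Dnmt3b* and *Tet2* were lost in some fits, with edgeR adjusted p-values of 0.0507 and 0.058 for *Dnmt3b* and 0.0524 to 0.0936 for *Tet2* in B/J, and of 0.059 to 0.0779 and 0.06 to 0.0793 in J/B, where *Dnmt1* was also lost with scaling to *Gapdh*, *Gusb* and *Tbp* (0.189). Within J/B, where the shares over all genes were 25.3% and 29.1%, 7 genes were lower and *Tet3* higher, *Tdg* having a log2 fold change of -0.36 (SE 0.185, edgeR adjusted p = 0.133) against -0.63 (SE 0.186, edgeR adjusted p = 0.0213) within B/J, where its call was lost on library totals, with the housekeeping genes and without ESC B/J replicate 2 or NPC B/J replicate 1 (edgeR adjusted p = 0.127 to 0.726). In B/J and J/B in turn, the log2 fold changes were -1.08 and -1.02 for *Dnmt1*, -2.85 and -2.63 for *Hells*, -2.42 and -2.53 for *Tet2*, and 3.26 and 3.24 for *Tet3*. For these genes the difference between the crosses was -0.11 to 0.21, with an SE of 0.255 to 0.883. *Uhrf1* had -2.25 and -1.79, with a larger difference of 0.46 (SE 0.393). *Dnmt3l* had -4.68 (SE 0.713) in B/J and -6.05 (SE 0.769) in J/B, a difference of -1.37 (SE 0.894). *Dnmt3a* had a log2 fold change of 0.78 (SE 0.438) in B/J and of -0.81 (SE 0.438) in J/B, neither of which passed edgeR's test (adjusted p = 0.164 and 0.152). Both calls depend on the setting. In B/J *Dnmt3a* passed with only the 4 libraries compared (0.78, edgeR adjusted p = 0.0202), without either ESC J/B library and on library totals (1.24, edgeR adjusted p = 0.0414), and in J/B it was -1.36 without ESC J/B replicate 2 (edgeR adjusted p = 0.006) and 0.15 without ESC J/B replicate 1.

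**Figure D4:**
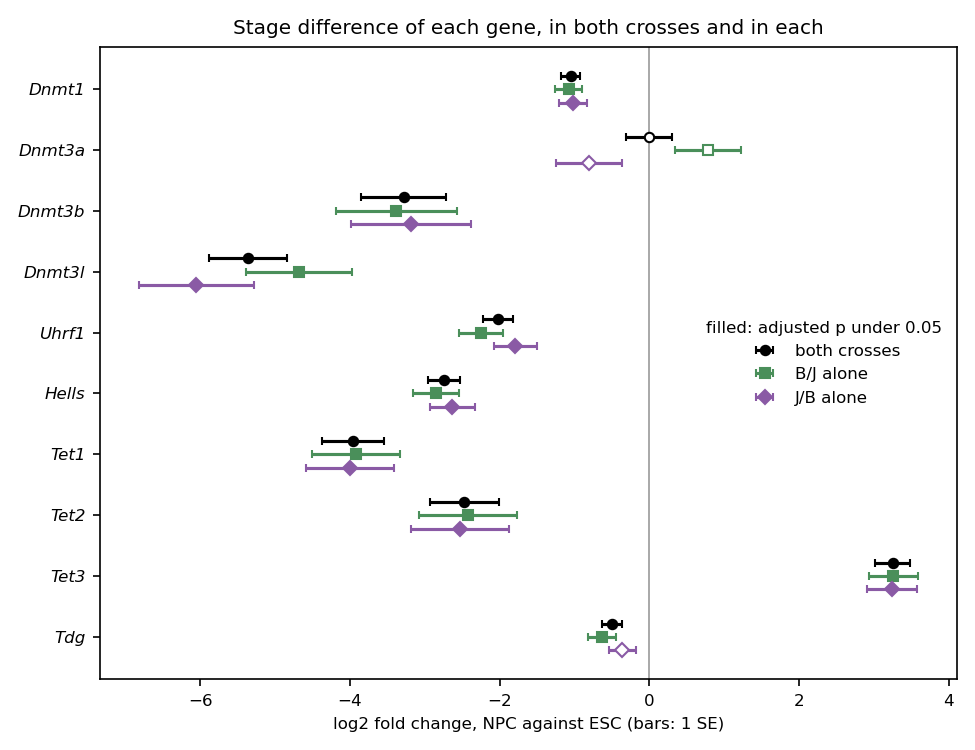
Log2 fold change of NPCs against ESCs for the 10 genes over both crosses (circles), in B/J (squares) and in J/B (diamonds); bars are 1 SE and filled marks passed an adjusted p of 0.05 in edgeR's test. Only *Dnmt3a* has estimates of opposite sign in the crosses, 0.78 and -0.81.

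The interaction of stage and cross itself was called for 0% of the genes tested, none of the 10 included. *Dnmt3a* had an interaction of -1.58 (SE 0.619, unadjusted p = 0.0351, adjusted p = 1 in edgeR's test), which was -0.62 without ESC J/B replicate 1, and over all genes edgeR gave 573 unadjusted p-values below 0.05 and DESeq2 11 calls. Between J/B and B/J in ESCs, 0% of genes were called, with 346 unadjusted p-values below 0.05 in edgeR and 10 calls by DESeq2. *Dnmt3a* was here 1.26 higher in J/B on the log2 scale (SE 0.442, unadjusted p = 0.0222, adjusted p = 1 in edgeR's test), and 0.30 higher without ESC J/B replicate 1. Between the crosses in NPCs, 0.0061% of genes were called, none of the 10 among them, with 1050 unadjusted p-values below 0.05 in edgeR and 70 calls by DESeq2. *Dnmt3l* was lower in J/B there (log2 difference -1.74, SE 0.663, unadjusted p = 0.0319, adjusted p = 0.763 in edgeR's test), a value that was -0.67 without NPC B/J replicate 2, the library with the highest pluripotency sum among NPCs. The other 8 genes differed between the lines by at most 0.45 on the log2 scale in either stage, with an SE of 0.181 to 0.74.

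Genes whose profile over the 8 libraries lay nearest to that of each methylation gene are given as a description, out of 14081 genes with a mean of at least 1 CPM. The measure was the root mean square distance of log2 levels centred on each gene's own mean. Nearest to *Uhrf1* were *Rnaseh2a*, *Chaf1b* and *Espl1* (distance 0.0882 to 0.102), which act in replication, chromatin assembly and chromosome separation. Nearest to *Hells* were *Ahcy*, the enzyme that clears S-adenosylhomocysteine, *Ggct* and the uracil glycosylase gene *Ung* (0.122 to 0.158). *Dnmt3b* was nearest to *Vrtn*, *Tdrd5* and *Pmel* (0.22 to 0.326), and *Dnmt3l* to *Rbmxl2*, *Tdrd12*, a germline gene, and *Fgf4*, a growth factor of pluripotent cells (0.309 to 0.355). The nearest genes were *Ttc39b*, *Dennd2c* and *Gm10416* for *Tet1* (0.235 to 0.381), *Tmem253*, *Kat6b* and *A930007A09Rik* for *Tet2* (0.131 to 0.309) and *6330403K07Rik*, *Cd47* and *Senp7* for *Tet3* (0.112 to 0.159). *Dnmt1* was nearest to *Thumpd3*, *Rad9a* and *Sdha* (0.0519 to 0.0685) and *Tdg* to *Spata7*, *Taf2* and *Arl6ip6* (0.0338 to 0.0652). *Dnmt3a*, nearest to *Cdk3*, *Lpar1* and *Gm16845*, had the most distant nearest neighbour but that of *Dnmt3l* (0.267). Among the 10 genes themselves, *Dnmt1* and *Tdg* were each other's nearest (0.372, at rank 3018 from *Dnmt1* and 3479 from *Tdg* among all genes), as were *Uhrf1* and *Hells* (0.462, at rank 1354 and 338).

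The rest of the pathway was read in 6 lists of genes beside the 31.9% lower and 37.5% higher of all genes. Among 11 readers of methylated DNA, 8 rose, 2 fell and 1 did not pass, with a median log2 fold change of 0.84 against 0.17 over all genes. *Zbtb4* (3.48) and *Mbd2* (2.19) rose most. The readers that fell were *Mbd4* (-1.48), a glycosylase as well as a reader, and *Mbd3* (-0.92), which binds methylated DNA poorly. Among 17 regulators and partners of the methyltransferases, 12 fell, 1 rose and 4 did not pass (median -0.95). The largest decreases were those of *Dppa3* (-5.78) and *Prdm14* (-5.71), both germline and pluripotency genes, and *Kdm1b*, the histone demethylase needed for imprints in oocytes, was the one that rose (1.02).

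Of 15 genes of the folate and methionine cycles, 13 were tested, of which 11 fell, none rose and 2 did not pass (median -1.82), with *Shmt1* (-3.27) and *Gnmt* (-2.88) falling most. *Shmt1* went from 212 to 21.9 CPM on average, whereas *Gnmt* was barely read in either stage (1.85 and 0.248 CPM). *Mat2a*, which makes S-adenosylmethionine, went from 714 to 202 CPM on average (-1.82), and *Ahcy* from 608 to 94.4 CPM (-2.69). Of 12 base excision repair genes 7 fell, 4 rose and 1 did not pass with TMM (median -0.65), a split that changes with the scaling. *Ung* (-2.72) and *Apex1* (-2.29) fell most, whereas *Neil3* (1.68) and *Smug1* (0.67), which encode glycosylases as *Tdg* does, rose most. Of 11 partners of TET and enzymes of 2-oxoglutarate metabolism, the cosubstrate of TET, 6 fell, 1 rose and 4 did not pass (median -0.69). *Idh3a* was among the genes that fell (-1.55), and *Cxxc4*, which encodes a CXXC protein that binds TET2, rose (5.45). Of 18 genes of S phase and cycling, 17 fell, none rose and 1 did not pass (median -1.78), with *Ccne1* (-2.91) and *Mcm2* (-2.20) falling most. The summed level of this list was 5930 to 7560 CPM in ESCs and 1840 to 2770 CPM in NPCs. *Dnmt1*, *Uhrf1* and *Hells* were lower in NPCs too, as were 31.9% of all genes. The ESC library with the highest sum, B/J replicate 1, had the highest *Dnmt1* and *Uhrf1* but the lowest *Hells*. The NPC library with the highest sum, J/B replicate 1, had the highest *Uhrf1* and *Hells* but not the highest *Dnmt1*. The part of this list in the levels of these genes was not tested.

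**Figure D5:**
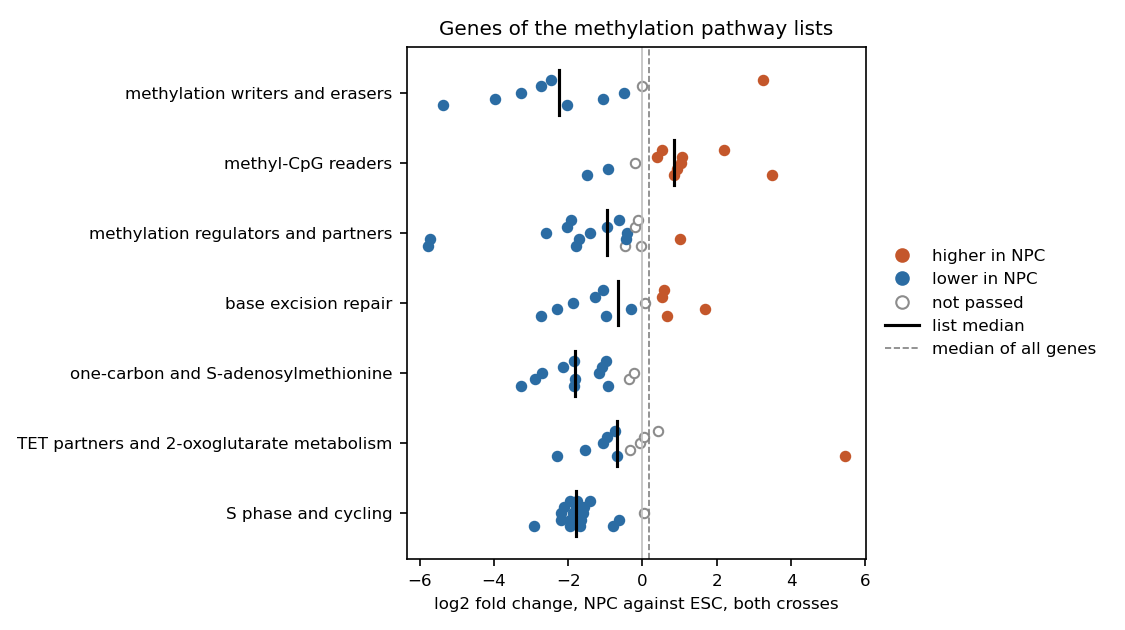
Log2 fold change of NPCs against ESCs over both crosses for each gene of the 10 methylation genes and of the 6 pathway lists; blue marks fell and orange marks rose in edgeR's test, open marks did not pass, black bars are list medians and the dashed line is the median of all genes (0.17). The readers have a median of 0.84 and the other lists medians below 0.

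How libraries were scaled moved these counts. The median of all genes was 0.19 with RLE factors, 0.65 on library totals and 0.80 with scaling to *Gapdh*, *Gusb* and *Tbp*, and 54% of all calls were higher in NPCs with TMM, 54.6% with RLE, 70.1% on totals and 75% with the 3 housekeeping genes. *Gapdh* and *Tbp* themselves fell with TMM (-1.43 and -0.69), and *Gusb* had 0.23 (edgeR adjusted p = 0.427). Of the 10 methylation genes, 1 rose and 7 fell under either of the latter scalings, *Tdg* being the one lost. Base excision repair and the TET partners were the lists without a fixed direction. On library totals 5 repair genes rose and 6 fell, and 4 TET partners rose and 4 fell. With the housekeeping genes 5 repair genes rose and 3 fell, and 4 TET partners rose and 3 fell. The medians of these lists (-0.17 and -0.20 on totals, -0.02 and -0.03 with the housekeeping genes) were below that of all genes under the same scaling. Under each of the 4 scalings 8 readers rose. Over all 16399 genes, those called in either direction numbered 11378 with TMM, 11366 with RLE, 11438 on totals and 11293 with the housekeeping genes. The share of all genes called higher, 37.5% with TMM, was therefore larger on totals and with the housekeeping genes, and the counts above stand beside it.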

How the data were processed

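RNA-seq libraries of ESCs and NPCs from both crosses were analysed in 4 groups of 2. The authors aligned paired reads with TopHat2 to the mm39 genome masked at JF1 SNPs with a refGene-based annotation and kept proper pairs of mapping quality 20 or more. HTSeq, DESeq2 and edgeR are named in the submitters' processing notes, without versions. The authors deposited raw counts for each gene, not normalized and summed over both alleles. The 5 closing entries were left out of totals (no gene, 5.76% to 10.9% of reads; ambiguous, at most 0.554%).

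The fits used edgeR 4.0.16 in R 4.3.3 (TMM, filterByExpr with a minimum count of 10, 4 group means, robust quasi-likelihood, common dispersion 0.113), and p-values were adjusted over 16399 genes by Benjamini-Hochberg. Ratios were tested by two-sided exact permutation. Alternatives were DESeq2 1.42.0, limma-voom (limma 3.58.1), RLE factors, library totals, the housekeeping genes *Gapdh*, *Gusb* and *Tbp* as the scale, 2 other low-count filters, no robust estimation, a replicate block, single replicate numbers, only the libraries compared, and each library left out. Blocks within each stage and exon-union lengths were added after seeing the data. The tests were tested on simulated data. Poisson intervals (95%) cover counting error only. Positions and lengths are from GENCODE for GRCm39, promoters from RefSeq for GRCm38.p6.

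The genes and lists were chosen with earlier results of these data known. The rule for naming covered the 10 genes, the 2 largest rises and falls passing the test in each pathway list, the 2 highest markers per list, 3 housekeeping genes and the 3 nearest profiles. Of the markers it covers, only *Pou5f1*, *Sox2*, *Col1a1* and *Col3a1* are given by name, the others within sums and counts. *Mat2a* and *Ahcy* in the folate and methionine list, *Pax6*, *Aire*, *Bola3*, *Glt8d2* and, for single libraries, *Dppa3*, *Prdm14*, *Col1a2*, *Pdgfrb*, *T*, *Twist1*, *Mesp1*, *Mixl1*, *Otx2*, *Pou3f1* and *Etv4* were taken up for their role or position or after their values were seen. A gene that the rule names in the list of TET partners is not reported here. Allelic expression was not analysed here.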

Additional observations from a re-analysis of the deposited data

Results flagged for a closer look

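Gaps within a stage were measured for the 10 genes and the 10 ratios over the 4 libraries of each stage, as the distance of the extreme library to its nearest neighbour divided by the whole range. The gap was larger than Dixon's 95% value in 4 of 40 sets of libraries, and chance flags about 1 in 20. ESC J/B replicate 1 was the extreme library in 3 of the 4, for *Dnmt3a* (460 CPM, gap 0.856), for *Dnmt3l* (124 CPM, gap 0.863) and for the log2 ratio of *Dnmt3l* to *Dnmt3a* (gap 0.851). These 3 are not independent, since the ratio is made of the other two. ESC B/J replicate 1 was the extreme library for the log2 ratio of *Hells* to *Dnmt1* (0.455 reads per read, gap 0.888).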

How the results depend on the processing

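Of the values for single methylation genes under the alternatives, 593 kept direction and call, 18 lost the call, 6 gained it and 19 turned sign. The turns were those of *Dnmt3a* and *Tdg*. Over both crosses *Dnmt3a* was 0.00 with RLE factors and with DESeq2, 0.47 on library totals, 0.64 with the housekeeping genes, 0.09 with limma-voom, 0.02 without a low-count filter, 0.01 with a mean of at least 1 CPM, -0.24 with the libraries numbered 1 alone, 0.41 with those numbered 2 alone and -0.29 to 0.46 with each library left out. Within J/B it was 0.01 with the housekeeping genes and -1.36 to 0.15 with each library left out (called without ESC J/B replicate 2, edgeR adjusted p = 0.006). Within B/J it was called on library totals (1.24), with the housekeeping genes (1.28), without either ESC J/B library (0.77 and 0.78) and with only the 4 libraries compared (0.78). *Tdg* with the housekeeping genes was 0.14 over both crosses and 0.38 within J/B, and on totals 0.12 within J/B. Within single crosses, the calls of *Dnmt3b*, *Tet2* and *Tdg* were lost in some fits with a library left out, those of *Dnmt3b* and, in B/J, *Tet2* without a low-count filter, that of *Tdg* in B/J on library totals (-0.16), and those of *Tdg* in B/J (-0.11) and *Dnmt1* (-0.28) and *Tet2* (-1.69) in J/B with the housekeeping genes. Genes called within J/B numbered 5700 to 8475 with each library left out, the least without NPC J/B replicate 2. The interaction gave 11 calls with DESeq2, and the crosses in ESCs 10 with DESeq2 and 2 without a filter. The crosses in NPCs gave 70 with DESeq2, 5 without a filter, 0 on library totals, with the housekeeping genes and with only the 4 libraries compared, and 0 to 1 with each library left out.

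Replicates with the same number deviated together within a stage (correlation of replicate 2 minus replicate 1 over genes 0.52 between the ESC groups and 0.59 between the NPC groups) but hardly between stages (0.05 to 0.09), so the numbers were not taken to pair libraries. With a replicate block, 12010 genes were called over both crosses against 11378, *Dnmt3a* was 0.01, as it was with a block within each stage, and 0 genes differed between the crosses in NPCs (4 with the block within each stage). Sign flips over the 4 pairs passed 0 of the 10 ratios, since 4 pairs cannot give a p below 0.125.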
